A study of Homo sapiens with 12 samples.

Results

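The set described here holds 41 human genes of homologous recombination, the Fanconi anaemia pathway and the DNA damage checkpoint kinases. They were chosen by symbol, with earlier results of these data known. The deposited gene counts carry Ensembl identifiers, and the identifiers that map to the listed symbols were taken in all 12 libraries. All 41 symbols were found among 32269 identifiers, and all 41 passed the filter on low counts, which left 20280 genes to test. The libraries came from 2 gastric cancer lines, AGS, labelled an epithelial gastric adenocarcinoma line, and MKN1, labelled an adenosquamous line of the stomach, both with the genotype label WT. Each line was sequenced untreated and treated with cantharidin sodium, with 3 libraries in each of the 4 groups. Cantharidin sodium is a salt of cantharidin, the blister beetle toxin, which is known to inhibit the protein phosphatases PP2A and PP1. The sources used here do not give the dose, the duration or the vehicle, and each line is a single established cell line.

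Homologous recombination mends a DNA double-strand break or a broken replication fork by copying the sister chromatid. The ends are cut back by the MRE11 complex and partner nucleases, BRCA1 and BRCA2 with their partners prepare the exchange of strands, and the joined molecules are then dissolved or cut. The Fanconi anaemia pathway opens crosslinks between the DNA strands: a core ubiquitin ligase marks the FANCD2 and FANCI pair and hands the lesion to recombination. ATM and ATR are the kinases that sense breaks and stalled forks and signal through CHEK2 and CHEK1. Many of these genes are known to be transcribed mostly in S phase and G2, so their mRNA levels in a culture go with how many of its cells divide.

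RefSeq promoter windows of GRCh38.p14, 300 bases from 250 before to 50 after an annotated start, were found for 37 of the 41 genes. Matches to 3 kinds of letters known from cell cycle promoters were looked up on both strands: the CCAAT box (CCAAT), E2F-type letters (TTTGGCGC, TTTCGCGC, TTTCCCGC or TTTGCGC) and the CHR (TTTGAA, and TTCGAA as a variant). No letters searched overlapped in the windows shown. Some genes have more than 1 window, and a gene was counted as holding the letters where any of its windows did. CCAAT was held by 17 of the 37 genes (45.9%), against 39.7% of all 27305 genes with a window. E2F-type letters were held by 5 of 37 (13.5%), against 5.48% of all genes, and TTTGAA also by 5 of 37, against 18.2%. TTCGAA was held by none of the 37 genes and by 1.82% of all genes. Among the genes described below as lower in treated MKN1 cells, 5 of 8 held CCAAT, 2 of 8 E2F-type letters and 1 of 8 TTTGAA. FANCG, also among these 8, held none of the letters. A match is a description of the letters and shows no binding. The first 270 bases of 5 windows are shown as examples from the calls described below. CHEK2, FANCD2 and EXO1 fell in MKN1, RAD51C fell in AGS and ATR rose in AGS. Windows of other called genes are not shown, so these 5 do not stand for all calls. All run 5′ to 3′ on the gene's strand, with matches in capitals. CHEK2 (chr22:28741801-28742070, minus strand) has 3 CCAAT boxes, read here as ATTGG. FANCD2 (chr3:10026187-10026456, plus strand) has 1 E2F-type match, EXO1 (chr1:241847954-241848223, plus strand) has 2 and RAD51C (chr17:58692323-58692592, plus strand) has 1. The match in RAD51C and 1 of the 2 in EXO1 are to the shortest E2F-type letters, TTTGCGC, read here as GCGCAAA. ATR (chr3:142578714-142578983, minus strand) has no match, and neither has another window of EXO1 that is not shown.
CHEK2: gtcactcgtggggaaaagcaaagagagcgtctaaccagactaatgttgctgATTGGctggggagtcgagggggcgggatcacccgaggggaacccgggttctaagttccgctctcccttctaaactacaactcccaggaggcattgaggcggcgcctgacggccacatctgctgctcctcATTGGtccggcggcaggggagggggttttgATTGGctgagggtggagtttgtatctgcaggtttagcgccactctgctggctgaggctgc
FANCD2: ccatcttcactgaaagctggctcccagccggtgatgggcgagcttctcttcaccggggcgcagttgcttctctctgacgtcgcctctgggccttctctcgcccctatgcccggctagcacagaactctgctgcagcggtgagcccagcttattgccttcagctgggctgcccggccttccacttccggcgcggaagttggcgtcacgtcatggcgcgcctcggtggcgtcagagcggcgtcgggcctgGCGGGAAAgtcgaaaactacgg
EXO1: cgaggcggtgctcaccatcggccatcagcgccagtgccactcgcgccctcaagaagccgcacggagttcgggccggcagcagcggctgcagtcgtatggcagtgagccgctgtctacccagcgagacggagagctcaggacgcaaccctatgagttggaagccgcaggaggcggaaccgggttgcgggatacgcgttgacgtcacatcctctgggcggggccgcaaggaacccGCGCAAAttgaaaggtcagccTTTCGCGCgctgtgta
RAD51C: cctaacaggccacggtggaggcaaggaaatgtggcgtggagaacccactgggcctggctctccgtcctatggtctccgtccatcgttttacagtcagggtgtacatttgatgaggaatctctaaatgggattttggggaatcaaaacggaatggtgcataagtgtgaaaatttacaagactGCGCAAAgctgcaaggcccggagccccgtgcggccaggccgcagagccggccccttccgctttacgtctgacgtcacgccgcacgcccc
ATR: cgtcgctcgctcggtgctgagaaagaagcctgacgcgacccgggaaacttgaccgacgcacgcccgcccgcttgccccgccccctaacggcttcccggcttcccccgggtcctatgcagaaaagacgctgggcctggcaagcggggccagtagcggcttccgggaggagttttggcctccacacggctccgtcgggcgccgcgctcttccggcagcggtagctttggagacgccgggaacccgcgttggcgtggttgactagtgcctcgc

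The libraries held 28604966 to 51604215 counts each. The lowest group mean of the set was that of RMI2 in untreated MKN1, at 4.31 CPM (counts relative to the size of the library), and the highest that of FANCI in untreated AGS, at 186. Levels are CPM after scaling of the libraries with TMM factors, and a member is said to rise or fall only where edgeR's quasi-likelihood test over all 20280 genes gave a Benjamini-Hochberg adjusted p below 0.05. The epithelial keratin KRT8 had means of 2373 CPM in untreated AGS and 3550 in untreated MKN1, whereas EPCAM, an epithelial surface marker, had 429 and 21.8. The squamous keratins KRT5, KRT14 and KRT6A had 429, 560 and 1263 CPM in untreated MKN1 and at most 0.303 in untreated AGS. Among markers of other cells, PTPRC, PECAM1, CDH5 and COL1A2 stayed at or below 0.951 CPM in every library, VWF reached 2.39 and PDGFRB 3.41, and DCN had a mean of 7.54 in untreated MKN1 and up to 11.8 in a library. LYZ, which gastric epithelium also makes, had 1257 CPM in untreated AGS. COL1A1 went from 21.7 CPM in untreated to 12.1 in treated AGS and HBB from 11.4 to 0.0258, and the part of these in the results was not tested. In bulk RNA, fewer cells of a type and less RNA per cell cannot be told apart.

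The MKN1 libraries numbered 3 stood apart in these genes. Treated replicate 3 was the lowest of its group for 35 of the 41 members (85.4%), against 37.9% of all tested genes, and untreated replicate 3 was the lowest for 27 of 41 (65.9%), against 40.84%. The median deviation of the members from untreated cells of the line, on a log2 scale of CPM, was 0.15, 0.05 and −0.21 in untreated MKN1 replicates 1 to 3 and −0.05, −0.03 and −0.53 in treated replicates 1 to 3. In AGS the same medians stayed between −0.02 and 0.01 in untreated and between 0.05 and 0.11 in treated libraries. The median coefficient of variation of the members was 4.80% in untreated and 6.81% in treated AGS, against 15.8% and 21.1% in MKN1. Counts of calls are given below with and without both libraries, an alternative chosen after the data were seen.

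**Figure D1:**
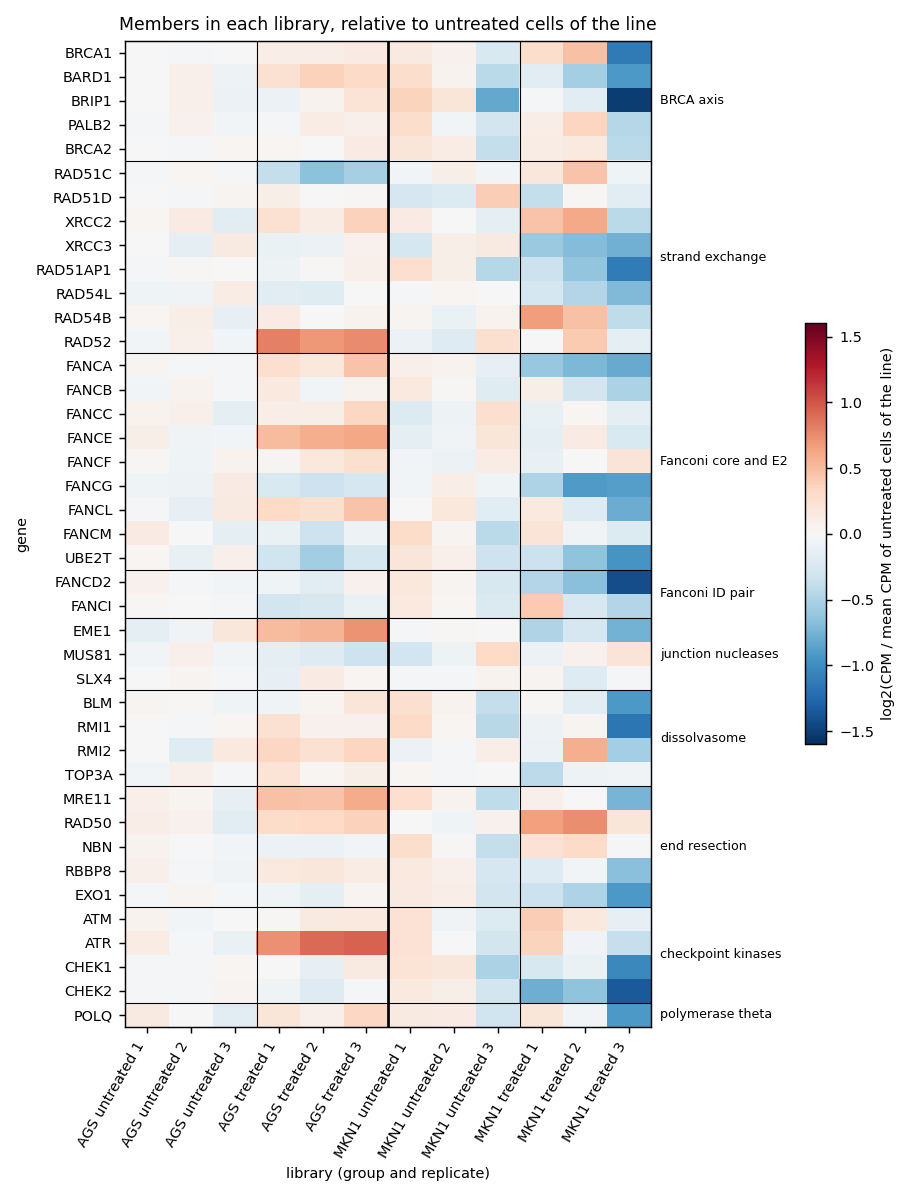
Level of each of the 41 members (vertical axis, grouped by role) in each of the 12 libraries (horizontal axis), as log2 of CPM over the mean of untreated cells of the same line; red is above and blue below that mean. ATR and RAD52 are red in all 3 treated AGS libraries, and the column of treated MKN1 replicate 3, the lowest of its group for 35 members, is mostly blue.

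In AGS 5 of the 41 members were called. ATR, RAD52, EME1 and FANCE rose and RAD51C fell, and the other 36 members did not pass the test. Higher calls were 4 of 41 (9.76%), beside a background of 9.21% of all tested genes, and lower calls were 1 of 41 (2.44%), beside 11.6%. The members' median log2 fold change was 0.06, against −0.01 over all genes. All 3 treated libraries lay above all 3 untreated ones for 14 members (34.1%, background 25.6%) and below them for 6 (14.6%, background 26.8%). The number of calls depended on the libraries fitted. With the 6 AGS libraries alone edgeR called 15 members, 5 lower and 10 higher, and 8368 of all genes. With all 12 libraries, 2347 of all genes were called lower and 1867 higher. Without both MKN1 libraries numbered 3 edgeR called 11 members. All 5 calls were kept in both of these alternatives.

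In MKN1 the calls ran mostly the other way. CHEK2, FANCD2, FANCG, FANCA, XRCC3, UBE2T, EXO1 and RAD54L fell, and RAD50 rose. Lower calls were 8 of 41 (19.5%), beside 3.9% of all tested genes, and higher calls 1 of 41 (2.44%), beside 2.8%. The members' median log2 fold change was −0.17, against 0.01 over all genes, and 28 of 41 values were below 0. Treated libraries lay below all untreated ones for 10 members (24.4%, background 11.4%) and above them for 1 (2.44%, background 9.95%). Without both MKN1 libraries numbered 3, 11 members fell and 3 rose. All 9 calls were kept, and BARD1, CHEK1 and RAD51AP1 were added to the lower and RAD54B and XRCC2 to the higher ones. The calls rest on a spread shared with AGS: with the 6 MKN1 libraries fitted alone edgeR called 0 members, with a lowest adjusted p of 0.102, while 11 members had an unadjusted p below 0.05, 10 of them lower. In that fit edgeR called only 34 of all genes. Over all 12 libraries, DESeq2 called 11 members and limma-voom 10.

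**Figure D2:**
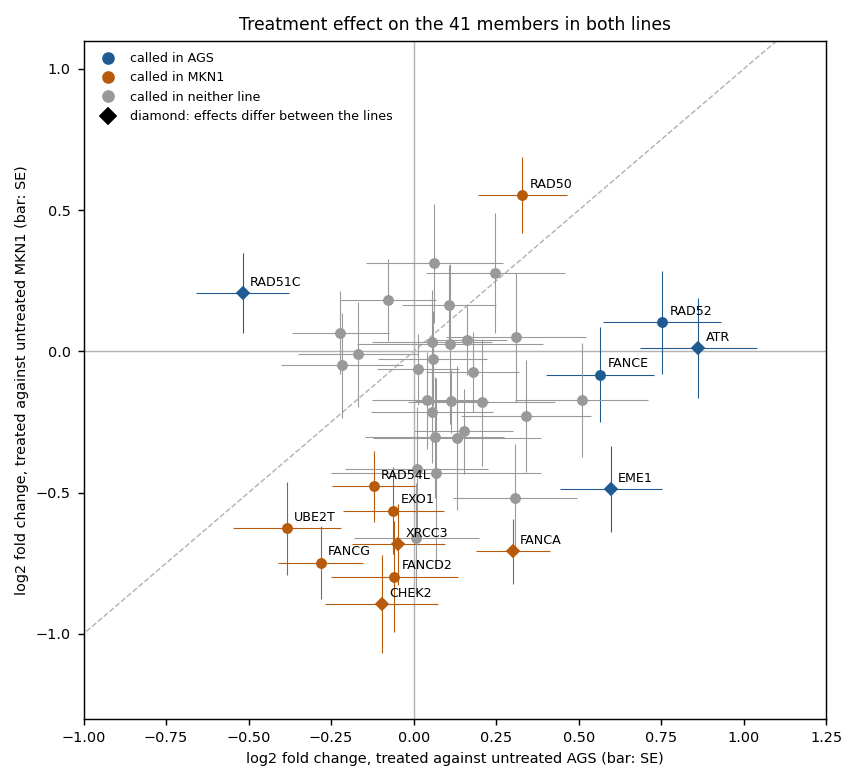
Fitted log2 fold change of each member in AGS (horizontal axis) against that in MKN1 (vertical axis), with SE bars; the dashed line marks equal effects. Members called in AGS (blue) spread along the horizontal axis, 8 of the 9 called in MKN1 (orange) lie below 0 on the vertical axis, and diamonds mark the 6 members whose effects differed between the lines.

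Checkpoint kinases gave the largest change of the set in each line. ATR, the kinase that answers single-stranded DNA at stalled forks, had 27, 24.3 and 23.1 CPM in untreated AGS and 41.3, 46.4 and 47.6 in treated AGS. Every treated library was well above every untreated one, a rise of 1.82-fold (log2 0.86, SE 0.18, adjusted p = 0.00601) that held in all 23 alternative fits. In MKN1, ATR had 42.3, 36.2 and 29.2 CPM untreated and 46.1, 34.7 and 27.8 treated, so the groups overlapped (log2 0.01, SE 0.18, adjusted p = 0.982). ATR exons share 16.4% of their bases with an antisense transcript, AC109992.1, and the library kit does not mark strand.

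CHEK2, the kinase that ATM activates after a break, had 37.1, 35.6 and 27 CPM in untreated MKN1 and 19.4, 21.2 and 13.1 in treated MKN1. The groups did not overlap, and CHEK2 fell by 0.90 on the log2 scale (1.86-fold, SE 0.17, adjusted p = 0.0125). Its call was lost only with MKN1 fitted alone (adjusted p = 0.112). In AGS, CHEK2 had 25.1, 25.1 and 26.2 CPM untreated and 24.2, 22.1 and 25.0 treated. The treated AGS libraries lay just below the untreated ones, with a log2 value of −0.10 (SE 0.17, adjusted p = 0.724). CHEK2 shares 6.70% of its exon bases with HSCB on the other strand, whose log2 values were −0.45 in AGS and 0.24 in MKN1.

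ATM and CHEK1, the break kinase and the effector of ATR, did not pass the test in either line. ATM had 51.8, 48.5 and 49.6 CPM in untreated and 50.5, 55.2 and 55.8 in treated AGS, and 44.5, 36.6 and 32.6 in untreated and 49.9, 42.8 and 34.6 in treated MKN1. Its groups overlapped in both lines. CHEK1 had 55.8, 55.7 and 57.6 CPM in untreated and 56.8, 51.3 and 62.0 in treated AGS, with a log2 value of 0.01 (SE 0.22). In MKN1, CHEK1 had 37.6, 36.4 and 22.8 CPM untreated and 26.9, 29.9 and 15.8 treated (log2 −0.42, SE 0.22, adjusted p = 0.281). Both MKN1 libraries numbered 3 were the lowest of their groups for CHEK1, and untreated replicate 3 is the one that lay among the treated libraries.

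The BRCA axis, which acts before strand exchange, held no call in either line. BRCA1, the ubiquitin ligase subunit that favours resection, had 44.6, 43.9 and 44.6 CPM in untreated AGS and 47.6, 47.6 and 48.6 in treated AGS. The treated AGS libraries lay above the untreated ones by a small margin (log2 0.11, SE 0.28, adjusted p = 0.816). In MKN1, BRCA1 had 42.6, 40.3 and 32.7 CPM untreated and 46.9, 53.4 and 17.5 treated. Treated replicate 3 was the lowest and the other treated libraries were the highest of the line, and the coefficient of variation of 48.7% was the largest of any member in any group. BRCA2, a mediator of strand exchange, had 47.6, 46.8 and 49.1 CPM in untreated and 49.0, 48.1 and 52.2 in treated AGS. Its MKN1 values were 38.2, 36.2 and 25.5 untreated and 36.2, 37.2 and 24.8 treated, with overlap in both lines and log2 values of 0.06 (SE 0.17) in AGS and −0.03 (SE 0.17) in MKN1. The log2 values of BARD1, the partner of BRCA1, were 0.31 (SE 0.19) in AGS and −0.52 (SE 0.19) in MKN1. PALB2 and BRIP1, a bridge to BRCA2 and a helicase, had log2 values of 0.05 and 0.07 in AGS and 0.03 and −0.43 in MKN1.

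Of 8 strand exchange genes, 1 fell and 1 rose in AGS, beside 11.6% and 9.21% of all tested genes. In MKN1 2 others fell, beside 3.9%. RAD52, an annealing protein, had 8.67, 9.40 and 8.65 CPM in untreated and 15.5, 14.4 and 15.1 in treated AGS. All treated libraries were above all untreated ones, a 1.69-fold rise (log2 0.75, SE 0.18, adjusted p = 0.0118). RAD51C, a strand exchange factor, had 24.2, 25.1 and 24.3 CPM in untreated and 18.8, 15.5 and 17.0 in treated AGS. It was the one member that fell in AGS, with no overlap of the groups (log2 −0.52, SE 0.14, adjusted p = 0.0218). In MKN1, RAD52 had 5.71, 5.25 and 7.30 CPM untreated and 6.04, 8.11 and 5.5 treated, and RAD51C had 15.2, 16.7 and 15.2 untreated and 17.9, 21.4 and 15 treated. Both overlapped in MKN1.

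XRCC3, which pairs with RAD51C, had 18.9, 24.4 and 25.3 CPM in untreated MKN1 and 15.1, 14.2 and 13.4 in treated MKN1. The groups were separate, and XRCC3 fell by 0.68 on the log2 scale (SE 0.14, adjusted p = 0.0165). Its exons share 76.7% of their bases with KLC1 on the other strand, so part of its count may belong to KLC1, whose log2 value in MKN1 was 0.07. RAD54L, a DNA motor of strand invasion, had 24.5, 25.5 and 24.7 CPM in untreated and 20.5, 17.9 and 15.2 in treated MKN1. It fell by 0.48 (SE 0.13, adjusted p = 0.0426) without overlap, and shares 25.1% of its exon bases with LRRC41, at −0.04. In AGS, XRCC3 had 17.7, 15.9 and 19.5 CPM untreated and 16.4, 16.5 and 18.5 treated, and RAD54L had 28.9, 29.1 and 32.9 untreated and 26.9, 26.4 and 30.3 treated. Both overlapped in AGS. RAD51D, XRCC2, RAD51AP1 and RAD54B, with the same kinds of roles, lay between 0.01 and 0.25 in AGS and between −0.66 and 0.31 in MKN1, and none passed. RAD51AP1 in MKN1, at −0.66 (SE 0.20), had an adjusted p of 0.0614.

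**Figure D3:**
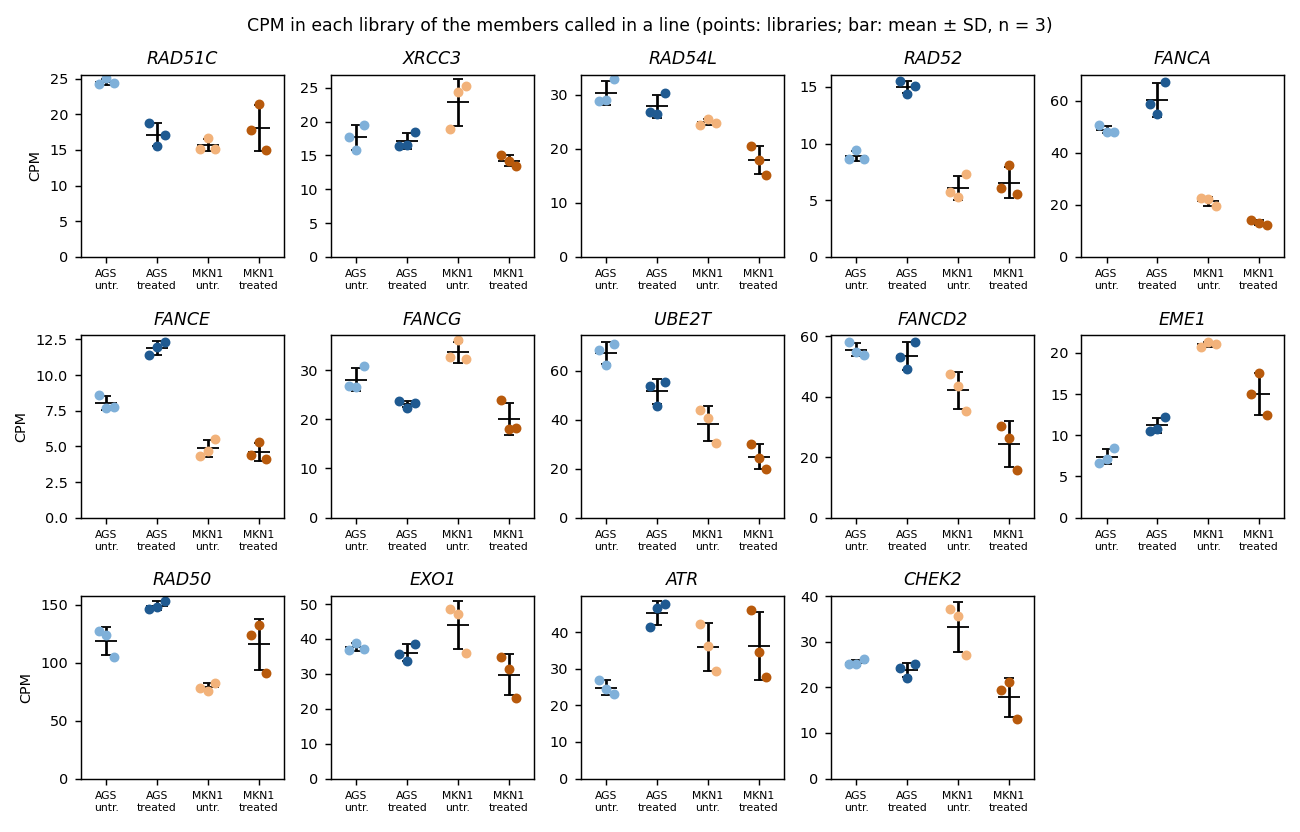
CPM (vertical axes, from 0) of the 14 members called in either line, in the 4 groups; points are libraries and bars the mean ± SD over n = 3. Treated AGS points lie above untreated ones for ATR, RAD52, EME1 and FANCE, and treated MKN1 points lie below untreated ones for CHEK2, FANCA, FANCG and the other 5 members that fell there.

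The Fanconi core complex and its E2 enzyme, 9 genes, held 3 of the 8 decreases in MKN1 (background 3.9% of all tested genes). FANCA, a scaffold of the core, had 22.5, 22.1 and 19.4 CPM in untreated and 14.1, 12.9 and 12.2 in treated MKN1. FANCG, which binds FANCA, had 32.6, 36.1 and 32.2 untreated and 23.8, 18 and 18.3 treated. Neither overlapped, and FANCA fell by 0.71 (SE 0.11, adjusted p = 0.00577) and FANCG by 0.75 (SE 0.13, adjusted p = 0.00791). UBE2T, the E2 that passes ubiquitin to FANCD2, had 44.1, 40.7 and 30.4 CPM untreated and 30.1, 24.5 and 20.01 treated, with untreated replicate 3 only just above treated replicate 1. It fell by 0.63 (SE 0.17, adjusted p = 0.0420).

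In AGS these 3 genes did not pass in the fit over all 12 libraries. FANCA had 50.5, 48.1 and 48.0 CPM untreated and 58.6, 54.7 and 67.2 treated, with all treated libraries higher (log2 0.30, SE 0.11, adjusted p = 0.0729). FANCG had 26.7, 26.6 and 30.9 untreated and 23.7, 22.4 and 23.2 treated, and UBE2T had 68.5, 62.2 and 71.2 untreated and 53.8, 45.7 and 55.4 treated. Both were lower in every treated library, with adjusted p = 0.142 for FANCG and 0.114 for UBE2T. Some alternatives called them in AGS: FANCA with DESeq2, with the stricter filter on low counts and without MKN1 untreated replicate 3, FANCA and UBE2T with the GC and length trend removed and without both MKN1 libraries numbered 3, and all 3 with AGS fitted alone. FANCA shares 23.6% of its exon bases with ZNF276 on the other strand, whose log2 values were −0.48 in AGS and 0.21 in MKN1, each of the other sign than those of FANCA. FANCE, the core subunit that contacts FANCD2, had 8.59, 7.71 and 7.78 CPM in untreated and 11.4, 12.0 and 12.3 in treated AGS. It rose by 0.57 (SE 0.16, adjusted p = 0.0283) with separate groups. In MKN1, FANCE had 4.35, 4.67 and 5.55 CPM untreated and 4.37, 5.32 and 4.09 treated, which overlapped. FANCB, FANCC, FANCF, FANCL and FANCM, other core subunits and the anchoring translocase, lay between −0.17 and 0.34 in AGS and between −0.23 and 0.04 in MKN1 without a call.

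Of the pair that the core marks, FANCD2 fell in MKN1 and FANCI did not pass. FANCD2 had 47.4, 43.4 and 35.3 CPM in untreated and 30.5, 26.5 and 15.7 in treated MKN1. The groups were separate, with treated replicate 3 far below the others (log2 −0.80, SE 0.20, adjusted p = 0.0321), and without both libraries numbered 3 the call was kept. In AGS, FANCD2 had 58.1, 54.7 and 53.9 CPM untreated and 53, 49.0 and 58.1 treated, with overlap. FANCI, its partner, had log2 values of −0.22 (SE 0.19) in AGS and −0.05 (SE 0.19) in MKN1.

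Among the nucleases that cut joined DNA molecules, EME1, the partner of MUS81, was the one called. EME1 had 6.68, 7.11 and 8.42 CPM in untreated and 10.6, 10.8 and 12.2 in treated AGS, a rise of 1.51-fold (log2 0.60, SE 0.15, adjusted p = 0.0176). In MKN1 it had 20.7, 21.4 and 21.0 CPM untreated and 15, 17.5 and 12.5 treated (log2 −0.49, SE 0.15, adjusted p = 0.0750). The groups were separate in both lines, upwards in AGS and downwards in MKN1. EME1 shares 16.4% of its exon bases with LRRC59, whose log2 values were −0.31 in AGS and 0.29 in MKN1. MUS81 and the scaffold SLX4 had log2 values of −0.22 and 0.01 in AGS and 0.07 and −0.06 in MKN1. MUS81 shares 14.1% of its exon bases with CFL1 and EFEMP2 on the other strand. In AGS, CFL1 went from 737 to 432 CPM (log2 −0.77), and EFEMP2 had a log2 value of −0.04. The 4 members of the complex that dissolves double Holliday junctions, BLM, TOP3A, RMI1 and RMI2, lay between 0.06 and 0.31 in AGS and between −0.31 and 0.05 in MKN1, with no call.

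Of 5 end resection genes, EXO1 and RAD50 were called, both in MKN1 (backgrounds 3.9% lower and 2.8% higher). EXO1, a nuclease of long-range resection, had 48.7, 47.1 and 36.0 CPM in untreated and 34.7, 31.3 and 23.2 in treated MKN1. Untreated replicate 3 was only just above treated replicate 1, and EXO1 fell by 0.56 (SE 0.15, adjusted p = 0.0466). RAD50, the ATPase of the MRE11 complex, had 78.4, 75.6 and 82.9 CPM untreated and 124, 133 and 90.6 treated. It was the one member that rose in MKN1 (log2 0.55, SE 0.13, adjusted p = 0.0317), and 79.7% of its exon bases lie in other annotated genes, among them AC116366.3 on its own strand. In AGS, EXO1 had 37.0, 38.9 and 37.0 CPM untreated and 35.7, 33.7 and 38.7 treated. RAD50 had 127, 124 and 105 untreated and 146, 148 and 153 treated in AGS, all treated libraries higher (log2 0.33, SE 0.13, adjusted p = 0.100). MRE11, NBN and RBBP8, the nuclease, the adaptor and the cofactor that starts resection, had log2 values of 0.51, −0.08 and 0.15 in AGS and −0.17, 0.18 and −0.28 in MKN1. POLQ, the polymerase of the competing end joining by microhomology, had 0.21 (SE 0.22) in AGS and −0.18 (SE 0.23) in MKN1.

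Several calls depend on single libraries. In AGS, 2 to 7 members were called with 1 library left out: 2 without untreated replicate 1, 2 or 3 or treated replicate 3, and 3 without treated replicate 2. RAD52 lost its call without untreated replicate 3 (adjusted p = 0.0506), EME1 without untreated replicate 1 or 2 or treated replicate 3, FANCE without any 1 of the 6 AGS libraries and RAD51C without any of the 5 named for the counts. The adjusted p then reached at most 0.0776 for EME1, 0.0961 for FANCE and 0.0945 for RAD51C. In MKN1, 3 to 11 members were called: 3 without MKN1 untreated replicate 2, 4 without MKN1 untreated replicate 1 or treated replicate 2, and 4 or 5 without AGS untreated replicate 2 or any treated AGS library. CHEK2, FANCG and FANCA were kept with each library left out, and XRCC3 was lost without MKN1 untreated replicate 2. UBE2T, EXO1, RAD54L and RAD50 lost the call in 13, 13, 15 and 10 of 23 alternative fits, and FANCD2 in 7.

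The test of the difference between the treatment effects, which uses the same 12 libraries, called 6 members. Relative to AGS, the effect in MKN1 was lower for EME1 (log2 difference −1.08, SE 0.22, adjusted p = 0.00591), FANCA (−1.01, SE 0.16, 0.00176), ATR (−0.85, SE 0.25, 0.0366), CHEK2 (−0.80, SE 0.24, 0.0423) and XRCC3 (−0.64, SE 0.20, 0.0475). It was higher for RAD51C (0.72, SE 0.20, adjusted p = 0.0280). Lower calls were 5 of 41 (12.2%), beside 7.3% of all tested genes, and higher calls were 1 of 41 (2.44%), beside 8.38%. The median difference over the members was −0.36, against 0.03 over all genes, and 32 of 41 values were below 0. BARD1 had −0.83 (SE 0.27) with an adjusted p of 0.0529. EME1 and FANCA were called in all 22 alternative fits. ATR, CHEK2, XRCC3 and RAD51C lost the call in 10, 11, 16 and 6 of them, and without 1 library the count lay between 2 (without AGS untreated replicate 1, 2 or 3 or treated replicate 2 or 3) and 10 (without MKN1 untreated replicate 3 or treated replicate 1), with 3 without AGS treated replicate 1 or MKN1 untreated replicate 1 or 2 or treated replicate 3.

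**Figure D4:**
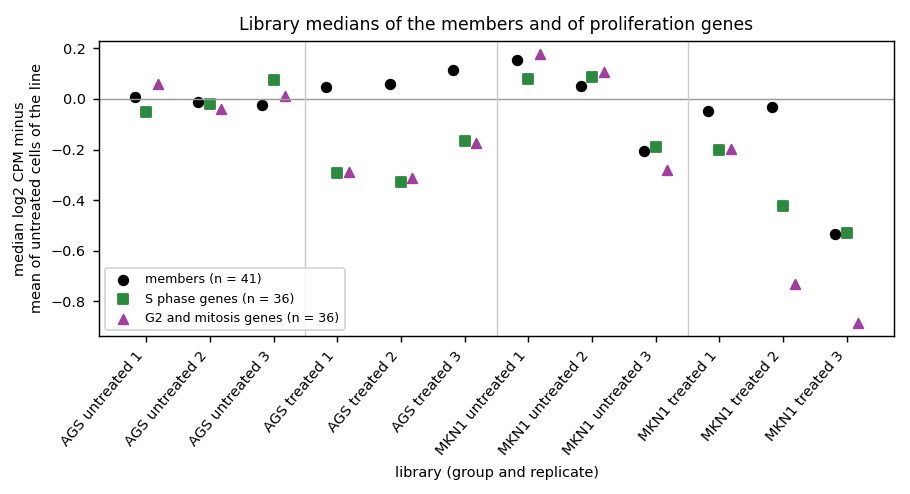
Median over each list of log2 CPM minus the mean of untreated cells of the line (vertical axis), for each library (horizontal axis); circles are the 41 members, squares 36 S phase genes and triangles 36 G2 and mitosis genes. In treated AGS the members lie between 0.05 and 0.11 and both other lists below 0, while in treated MKN1 replicate 3 the members are at −0.53.

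Genes of DNA replication and division were read as separate lists beside the members. Backgrounds over all tested genes were 11.6% lower and 9.21% higher in AGS and 3.9% lower and 2.8% higher in MKN1. Of 36 S phase genes, 13 fell in AGS and 9 in MKN1 and none rose, with median log2 fold changes of −0.25 and −0.35. Of 36 G2 and mitosis genes, 9 fell in AGS and 8 in MKN1 and none rose, with medians of −0.27 and −0.57. By library, the S phase median was −0.29, −0.33 and −0.17 in treated AGS replicates 1 to 3 and −0.20, −0.42 and −0.53 in those of treated MKN1. It was 0.08, 0.09 and −0.19 in untreated MKN1, so untreated replicate 3 was again the lowest of its group. The G2 and mitosis median was 0.18, 0.11 and −0.28 in untreated MKN1 and −0.20, −0.73 and −0.88 in treated MKN1. The part of these lists in the members' levels was not tested.

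The other genes of the pathway, read from a separate list of 47, gave 6 lower and 4 higher calls in AGS, beside backgrounds of 11.6% and 9.21% of all tested genes, and 4 lower and 1 higher in MKN1, beside 3.9% and 2.8%. Their median log2 fold changes were −0.06 and −0.17. In AGS the clearest were SWI5, a recombination mediator (22.5 to 12.7 CPM, log2 −0.83, SE 0.15), FAN1, a crosslink nuclease (14.9 to 25.2 CPM, log2 0.76, SE 0.16), and CENPX, a partner of FANCM (23.2 to 14.8 CPM, log2 −0.65, SE 0.16). In MKN1 they were RTEL1, a helicase that unwinds joined molecules (16.3 to 4.67 CPM, log2 −1.80, SE 0.28), RPA3, a subunit of the single-strand binding protein (33.9 to 21.5 CPM, log2 −0.66, SE 0.16), and FAAP100, a core complex subunit (18.7 to 12.1 CPM, log2 −0.63, SE 0.16). The effects of FAN1, SWI5 and BABAM2, a subunit of a BRCA1 complex, differed between the lines, by −1.32, 1.20 and −0.97 (adjusted p = 0.00249, 0.00263 and 0.00527).

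Of 26 further checkpoint genes, 6 fell and 1 rose in AGS (backgrounds 11.6% and 9.21%) and 4 fell in MKN1 (background 3.9%), with medians of −0.18 and −0.03. PPM1D, the phosphatase that ends the response (32.3 to 19.8 CPM, log2 −0.70, SE 0.14), ATRIP, the partner of ATR (15.4 to 10.3 CPM, log2 −0.58, SE 0.13), and HUS1 of the 9-1-1 clamp (20.1 to 14.2 CPM, log2 −0.50, SE 0.13) fell in AGS. ATR itself rose there, so the kinase and its obligate partner were called in different directions. TIMELESS of the fork protection complex (56.9 to 37.7 CPM, log2 −0.59, SE 0.13) and WEE1, the kinase that holds CDK1 (94.4 to 68.2 CPM, log2 −0.47, SE 0.11), fell in MKN1. The effect differed between the lines for WEE1 (−0.87) and PPM1D (0.80). Of 11 genes of non-homologous end joining, the other main route of break repair, XRCC6, the Ku70 subunit (498 to 373 CPM, log2 −0.42, SE 0.10), fell in AGS (background 11.6%) and none was called in MKN1, with medians of 0.15 and 0.04.

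**Figure D5:**
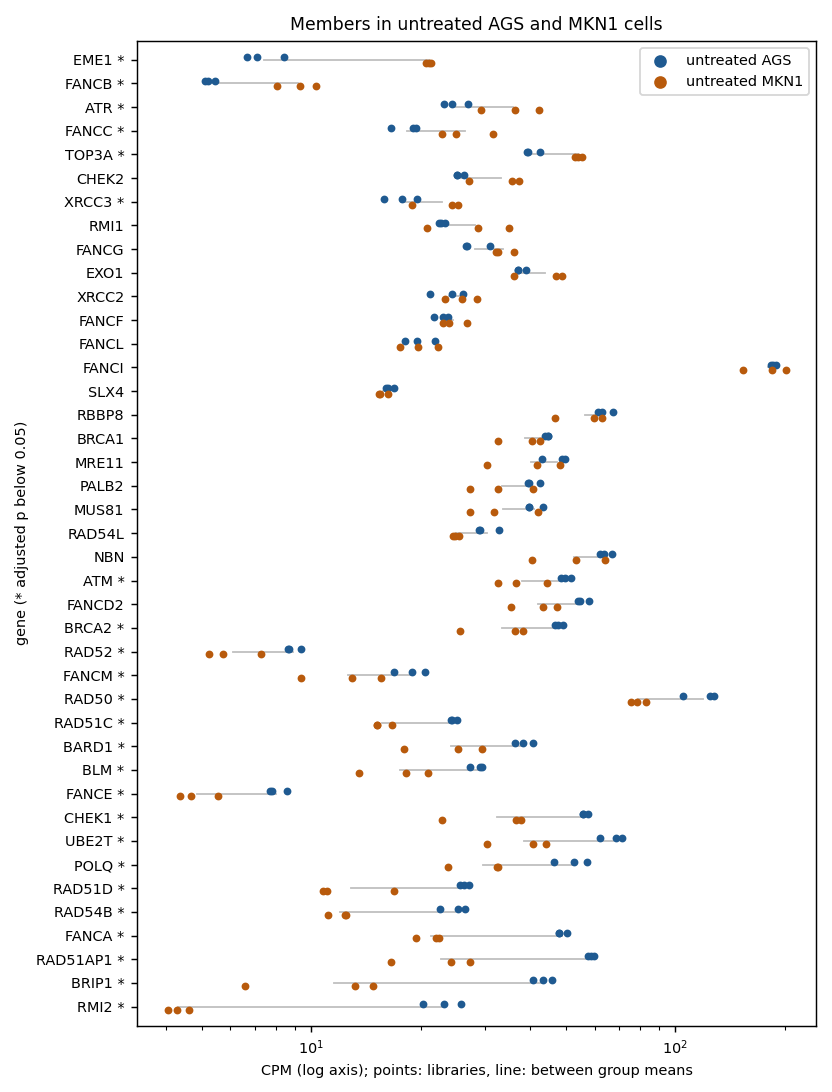
CPM on a log axis (horizontal) of each member (vertical axis, ordered by the difference between the lines) in the 3 untreated AGS and the 3 untreated MKN1 libraries; the line joins the group means and an asterisk marks an adjusted p below 0.05. EME1 is at the top with MKN1 higher, and RMI2 and BRIP1 are at the bottom with AGS higher.

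Without treatment, MKN1 had less of many of these mRNAs than AGS. In untreated cells 18 members were lower in MKN1 (43.9%, background 31.4%) and 6 were higher (14.6%, background 34.9%), with a median log2 difference of −0.28 against 0.04 over all genes. RMI2, the small subunit of the dissolving complex, had 23.2, 20.3 and 25.7 CPM in untreated AGS and 4.04, 4.27 and 4.63 in untreated MKN1, which is 5.34-fold less (log2 −2.42, SE 0.23, adjusted p = 8.44e-07). BRIP1, the helicase bound to BRCA1, had 43.4, 45.9 and 40.6 against 14.8, 13.2 and 6.56 CPM, with MKN1 replicate 3 the lowest (log2 −1.91, SE 0.33, adjusted p = 0.000220). The next largest were RAD51AP1 (−1.37), FANCA (−1.20) and RAD54B (−1.05), of which RAD54B shares 59.1% of its exon bases with FSBP. No library of 1 line overlapped with the other for RMI2 and BRIP1. In the other direction, EME1 had 6.68 to 8.42 CPM in AGS and 20.7 to 21.4 in MKN1, 2.84-fold more (log2 1.51, SE 0.16, adjusted p = 1.93e-06). FANCB (0.81), ATR (0.53), FANCC (0.53) and TOP3A (0.42) followed, and of these ATR lost the call without AGS untreated replicate 2 or 3 or MKN1 untreated replicate 1 (adjusted p of up to 0.0830). Without both MKN1 libraries numbered 3, 29 members were called between the untreated lines, 23 of the 24 among them, and BRIP1 was at −1.62.

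Under treatment 22 members were lower in MKN1 than in AGS (53.7%, background 31.4%) and 2 were higher (4.88%, background 36.8%), with a median of −0.41 against 0.08 over all genes. RMI2 (−2.68), BRIP1 (−2.41), FANCA (−2.20), RAD51AP1 (−2.04) and BARD1 (−1.49) were the furthest apart. FANCB (0.54) and EME1 (0.42) were the members still higher in MKN1, and the log2 difference for ATR was −0.32 (SE 0.18, adjusted p = 0.125). EME1 lost this call with the GC and length trend removed and without AGS treated replicate 1 or 2 or MKN1 treated replicate 2, and FANCB without AGS treated replicate 2 or MKN1 treated replicate 1, with adjusted p of up to 0.113 and 0.0810. Without both MKN1 libraries numbered 3, 23 members were called, 21 of the 24 among them, and BRIP1 was at −2.06. Differences between the lines also hold every other way in which the 2 lines differ, which cannot be told apart here.

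Levels were also read per kilobase of the union of a gene's annotated exons. That union can exceed any 1 transcript: it has 12809 bases for FANCC and 23972 for ATM, against longest transcripts of 4592 and 13147. The order of genes therefore depends on the annotation. UBE2T had the highest level in both untreated lines, with 40.7 CPM per kilobase in AGS and 23.2 in MKN1. FANCI followed with 23.9 and 23.1. RAD51AP1 came next in AGS with 22.9, and RBBP8 in MKN1 with 11.1. The lowest levels were those of FANCC (1.43) and FANCB (1.46) in AGS and of RAD51D (1.14) and RMI2 (1.19) in MKN1. ATR and ATM, which have long transcripts, were among the 5 lowest in AGS, with 1.99 and 2.09 CPM per kilobase.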

How the data were processed

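RNA from 12 samples was extracted with TRIzol and made into NEBNext Ultra libraries, which do not mark strand, per the labels' protocols. The series' design text calls the 3 libraries of a group biological replicates. The p-values rest on a spread between replicates estimated over all 4 groups together, with information shared across genes. They do not rest on the compared groups alone. Reads were aligned with HISAT2 2.0.4 to hg38/GRCh38, per the submitters' processing notes. The sources used here do not give the counter, its annotation or its strand setting. The authors deposited raw counts per gene, without normalization.

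From these counts, edgeR 4.0.16 in R 4.3.3 was run on all 12 libraries: filterByExpr over the 4 groups (20280 genes), TMM factors, glmQLFit and glmQLFTest, with Benjamini-Hochberg adjustment over all tested genes at 0.05. The common biological coefficient of variation was 19.7%. Contrasts were treated against untreated in each line, their difference, and MKN1 against AGS in each condition. The contrasts share libraries. SE is an approximate standard error, computed as the absolute log2 fold change over the square root of the test's F statistic. Library totals of 28604966 to 51604215 counts set the counting precision. Identifiers were matched to symbols with a table of current names, positions and shared exons came from GENCODE 29, and promoter sequences from RefSeq. Shared exons make the counts of ATR, XRCC3, RAD54L, FANCA, EME1, RAD50 and RAD54B uncertain. Other members share exon bases too, among them FANCL (19.7%), MUS81 (14.1%), FANCF (11.3%) and CHEK2 (6.70%), all with genes on the other strand.

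The members and all gene lists were chosen with earlier results of these data known. Libraries' values are given for members called in a treatment contrast or its difference and for BRCA1, BRCA2, ATM, ATR, CHEK1 and CHEK2. Named besides, by log2 difference or group means, are the 5 largest called differences each way between lines and the 3 smallest adjusted p from each list of other pathway genes. No single S phase, G2 or mitosis gene is named. A gene that this rule selects is left out of the text, while counts include it. Alternatives were other scaling factors, DESeq2 1.42.0, limma 3.58.1 (voom), other filters on low counts, the replicate number as a block, the compared libraries fitted alone, removal of a trend on GC content and length, and each library left out. The code was tested on simulated data.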

Additional observations from a re-analysis of the deposited data

Results flagged for a closer look

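For 6 members the effect of treatment differed between the 2 lines, by edgeR's quasi-likelihood test of the difference itself with Benjamini-Hochberg adjustment over all tested genes. EME1 had a log2 difference, MKN1 minus AGS, of −1.08 (adjusted p = 0.00591) and FANCA of −1.01 (adjusted p = 0.00176). In both, the treated libraries lay above the untreated ones in all 3 AGS libraries and below them in all 3 MKN1 libraries. ATR (−0.85, adjusted p = 0.0366) was higher in all 3 treated AGS libraries and overlapped in MKN1. CHEK2 (−0.80, adjusted p = 0.0423) was lower in all 3 treated libraries of both lines, in AGS by a small margin. XRCC3 (−0.64, adjusted p = 0.0475) was lower in all 3 treated MKN1 libraries and overlapped in AGS. RAD51C (0.72, adjusted p = 0.0280) was lower in all 3 treated AGS libraries and overlapped in MKN1.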

How the results depend on the processing

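No log2 value of a called member that was checked changed sign under any alternative run. Between the lines only the 5 largest called differences each way, or fewer, were checked. Members without a call were not checked for sign. In AGS, 5 members were called, and 15 with AGS fitted alone, 8 with the GC and length trend removed, and 11 without both MKN1 libraries numbered 3 (chosen after seeing the data). With 1 library left out the count was 2 to 7, while that of all genes was 2051 to 5533. With AGS fitted alone edgeR called 8368 of all genes. In MKN1, 9 were called, 5 with library totals alone, 0 with MKN1 fitted alone, 14 without both libraries numbered 3, and 3 to 11 with 1 library left out. For all genes the MKN1 count with 1 library left out was 336 to 3160. For the difference, 6 were called, 10 with the GC and length trend removed, 13 without both libraries numbered 3, and 2 to 10 with 1 left out. Of the 6, XRCC3 was lost without both libraries. The share of all genes called in the fits without both libraries is not given here. Counts between the lines were 21 to 27 untreated and 19 to 28 treated with 1 left out, against 24 in each. Other scaling factors moved the median log2 fold change of all genes by less than 0.1. The members' median GC content was 41.9%, against 48.5% for all tested genes. The causes of these changes were not tested.

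The sources used here do not state whether replicate numbers pair the samples. Same-numbered libraries had correlations of their deviations of 0.01, 0.02 and −0.04 in AGS and 0.08, −0.04 and 0.18 in MKN1. Differently numbered ones had −0.07 to 0.05 in AGS and −0.18 to 0.12 in MKN1. With 3 libraries in a group these values cannot decide whether the samples were paired. With the replicate number as a block, 6 members were called in AGS (FANCE lost, MRE11 and UBE2T added), 10 in MKN1 (all lower, without RAD50 and RAD54L), 10 for the difference (XRCC3 lost), and 28 in each contrast between the lines.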
